A study of Ovis aries with 8 samples.

Results

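The genes described here are 10 regulators of muscle wasting, measured in the longissimus thoracis, the loin muscle along the ribs, of lambs (Ovis aries) on 2 diets. They are the forkhead factors *FOXO1*, *FOXO3* and *FOXO4*, the zinc-finger factor *KLF15*, the ubiquitin ligase genes *FBXO32*, *TRIM63*, *FBXO30* and *FBXO21*, the growth inhibitor *MSTN* and the stress-induced gene *DDIT4*. They were taken as a list of symbols, and all 10 were among the 11247 genes of the count table. The groups were 4 castrated Dorper by Santa Inês crossbred lambs whose diet held 20% soybean molasses (SM20), a sugar-rich by-product of soy protein concentrate, and 4 lambs of the same cross, also castrated, on a control diet (CON). The lambs with libraries were drawn at random from a feeding trial with 10 animals per diet, and each library is 1 lamb. Muscle was taken fresh at slaughter and frozen, and poly-A RNA was sequenced. Age, feeding time before slaughter and litter are not given in the labels.

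Skeletal muscle loses mass when protein breakdown outpaces synthesis. When insulin and IGF1 signalling is low, AKT no longer phosphorylates the FOXO factors, which then enter the nucleus and switch on ubiquitin ligases and autophagy genes. Glucocorticoids act beside this route through *KLF15* and *DDIT4*, and myostatin acts through activin receptors and SMAD factors. The ligases then mark muscle proteins for the proteasome. All of this is known from rodents and other mammals and is background here.

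Values are given as CPM, the counts scaled to a common library size with TMM factors, which correct for differences in library makeup. The 13 of 17 muscle fibre markers present in the table summed to 151065 to 157705 CPM in SM20 lambs and 126354 to 195916 CPM in CON lambs. Of these 13, 10 had lower and 3 had higher fitted levels in SM20. The smallest p was that of *NEB*, which was higher in SM20. It averaged 20273 ± 1350 CPM in SM20 and 12886 ± 1600 CPM in CON (SD, n = 4 per diet; edgeR adjusted p = 0.0873). DESeq2 called 1 of the 13, NEB, against 6.28% of the genes it gave an adjusted p. The 9 slow-fibre genes tested were all lower in SM20, and 8 of the 9 fast-fibre genes tested were lower too. The other fast-fibre gene, *MYH4*, averaged 71903 CPM in SM20 and 61138 CPM in CON. At an unadjusted p under 0.05 by edgeR, 3 slow-fibre genes and 1 fast-fibre gene were lower, against 8.45% of all genes, and 0 passed after adjustment. Slow-fibre genes summed to 11354 to 16154 CPM in SM20 lambs and 10983 to 26356 CPM in CON lambs. Fast-fibre genes summed to 129116 to 158571 CPM in SM20 lambs and 117392 to 159868 CPM in CON lambs. Markers of endothelium summed to 456 to 663 CPM in SM20 and 522 to 737 CPM in CON, and those of fibroblasts to 1255 to 2727 CPM in SM20 and 1196 to 2154 CPM in CON. Of the 10 endothelial genes 8 were lower in SM20. At an unadjusted p under 0.05 by edgeR 3 of the 10 were lower and 1 was higher, and 0 passed after adjustment. DESeq2 called 1 of them, *CLDN5*, as lower. Adipocyte markers summed to 65.3 to 109.7 CPM in SM20 lambs and 59.0 to 154 CPM in CON lambs, and 5 of the 6 tested were lower in SM20. Macrophage markers stood at 16.1 to 46.5 CPM in SM20 and 20.9 to 44.7 CPM in CON, and lymphocyte markers at 6.34 to 10.1 CPM in SM20 and 3.84 to 10.3 CPM in CON, while the erythrocyte list had no tested gene. Satellite cell markers summed to 61.0 to 96.4 CPM in SM20 and 47.2 to 68.4 CPM in CON. All 6 tested were higher in SM20, 1 of them at an unadjusted p under 0.05 by edgeR and 0 after adjustment. The list of immediate early and handling stress genes summed to 364 to 1009 CPM in SM20 and 436 to 1526 CPM in CON, and its largest part was the heat shock gene *HSPA1A*, at 382 CPM on average in SM20 and 489.6 CPM in CON. Of its 11 tested genes, 3 were higher and 0 lower in SM20 at an unadjusted p under 0.05, and 0 passed after adjustment by edgeR. They were *FOS* (93.8 ± 135 CPM in SM20, 9.90 ± 6.36 CPM in CON), *EGR1* (9.98 ± 10.04 CPM in SM20, 3.04 ± 1.62 CPM in CON) and *DNAJB1* (24.4 ± 8.13 CPM in SM20, 16.2 ± 2.51 CPM in CON; SD, n = 4 per diet), and the diets overlapped for all 3. Their part in the results below was not tested. Library totals ran from 8675527 to 11210065 counts. The TMM factors ran from 0.885 in CON lamb 1 to 1.10 in CON lamb 3. CON lamb 1 stood highest in the fibre and the slow-fibre sum. It also stood highest in the fast-fibre sum, by a small margin that depends on the TMM factors.

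None of the 10 genes passed the test of the diets. By the quasi-likelihood test of edgeR, with p-values adjusted by the Benjamini-Hochberg method over all 9779 genes tested, 0 of 10 had an adjusted p under 0.05, against 0.0511% of all genes. At an unadjusted p under 0.05 there was 1 of 10, *FBXO30*, against 18.3% of all genes (9.84% higher and 8.45% lower in SM20). DESeq2 also called 0 of 10, against 6.28% of the genes it gave an adjusted p. The SM20 and CON lambs overlapped in level for every one of the 10. The share of all genes tested without overlap was 12.2%, and among only 10 genes a count of 0 is near that share. Of the log2 fold changes, 7 were above and 3 below 0, with a median of 0.16 against 0.01 over all genes tested. The 95% interval of the log2 fold change held 0 for 9 of the 10.

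**Figure D1:**
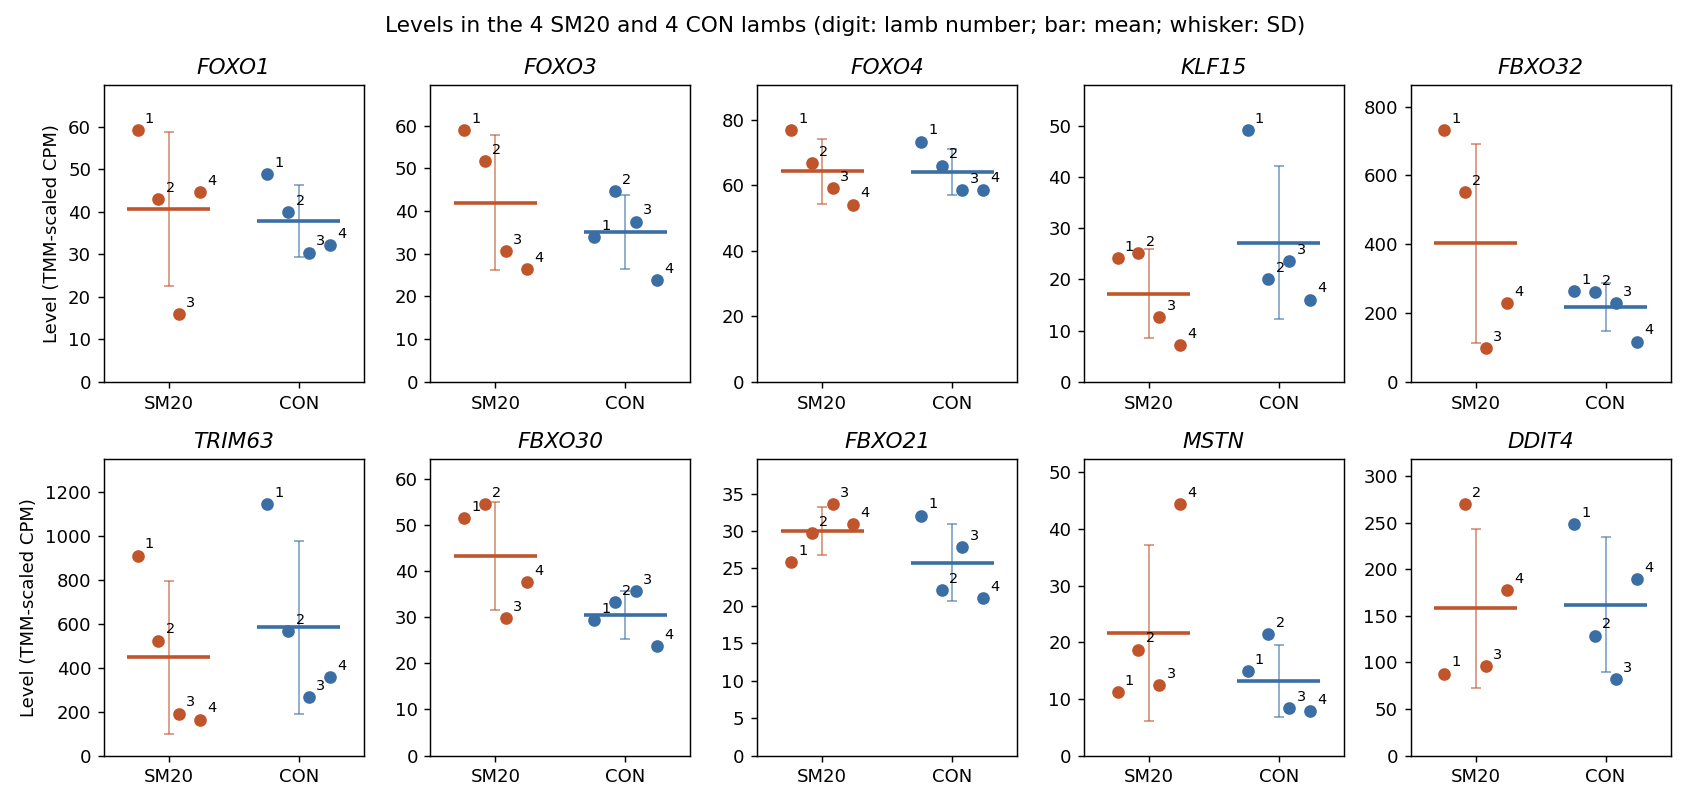
Level of each of the 10 genes in TMM-scaled CPM (vertical axes, each from 0), with the 4 SM20 lambs left and the 4 CON lambs right; digits are lamb numbers, bars are means and whiskers are SD. The diets overlap in every panel, and in FBXO32 the SM20 lambs span 99.3 to 731 CPM where the CON lambs span 117 to 263 CPM.

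The best-known effectors are *FBXO32*, which encodes atrogin-1, an F-box subunit that brings substrates to an SCF ubiquitin ligase, and *TRIM63*, which encodes MuRF1, a RING ligase of the sarcomere. FBXO32 stood at 731, 551, 99.3 and 228 CPM in SM20 lambs 1 to 4, against 263, 261, 229 and 117 CPM in CON lambs 1 to 4. SM20 lambs 1 and 2 lay above all CON lambs, SM20 lamb 4 lay inside the CON range and SM20 lamb 3 lay below it. The means were 403 ± 290.2 CPM in SM20 and 218 ± 68.9 CPM in CON (SD, n = 4 per diet). The log2 fold change was 0.89 ± 0.50 (SE) with an adjusted p of 0.368 by edgeR, and its 95% interval ran from -0.21 to 1.99, so that it spans a level slightly below CON as well as one 3.97-fold above it. Without SM20 lamb 1 the log2 fold change was 0.43, and without SM20 lamb 3 it was 1.21.

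TRIM63 stood at 910.5, 524, 191 and 164 CPM in SM20 lambs 1 to 4, against 1145, 568, 266 and 356 CPM in CON lambs 1 to 4. In both diets lambs 1 and 2 were the highest, and the diets overlapped over most of their ranges. The means were 447 ± 349 CPM in SM20 and 584 ± 395 CPM in CON (SD, n = 4 per diet), and the log2 fold change was -0.38 ± 0.56 (SE, adjusted p = 0.760 by edgeR). Its sign rested on CON lamb 1, without which it was 0.18. The sign held in the other 7 fits that left out 1 lamb, and the lowest value was -0.996 without SM20 lamb 1. CON lamb 1, the highest for TRIM63, was also the lamb with the highest slow-fibre sum. That sum was 26356 CPM, against at most 18363 CPM in the other CON lambs and 16154 CPM in SM20 lambs. Its fast-fibre sum was 159868 CPM, close to the 158571 CPM of SM20 lamb 3. The TMM factors of these lambs were 0.885 and 1.02, and which of them has the higher fast-fibre sum depends on this scaling. The part of these sums in the result was not tested.

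The other 2 ligase genes were steadier. *FBXO30* encodes an F-box protein, also called MUSA1, that in mice is restrained by BMP signalling and induced on denervation. It stood at 51.4, 54.5, 29.8 and 37.6 CPM in SM20 lambs 1 to 4, against 29.4, 33.3, 35.6 and 23.7 CPM in CON lambs 1 to 4. Of the SM20 lambs 3 lay above every CON lamb, and SM20 lamb 3 lay within the CON range. The log2 fold change was 0.51 ± 0.20 (SE), with an unadjusted p of 0.0302 and an adjusted p of 0.224 by edgeR, and DESeq2 gave an adjusted p of 0.168. This was the smallest p among the 10 genes. The fold change was above 0 in all 8 fits that left out 1 lamb, between 0.37 without SM20 lamb 2 and 0.65 without SM20 lamb 3.

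*FBXO21* encodes an F-box protein that is FOXO-dependent in mouse muscle, where it was named SMART. It stood at 25.8, 29.7, 33.6 and 30.9 CPM in SM20 lambs 1 to 4, against 32.0, 22.1, 27.8 and 21.1 CPM in CON lambs 1 to 4. Its SM20 lambs all lay within 1.30-fold of each other, and SM20 lamb 1, the highest for FBXO32 and TRIM63 among SM20 lambs, was the lowest of them here. Its log2 fold change was 0.22 ± 0.16 (SE, adjusted p = 0.500 by edgeR).

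**Figure D2:**
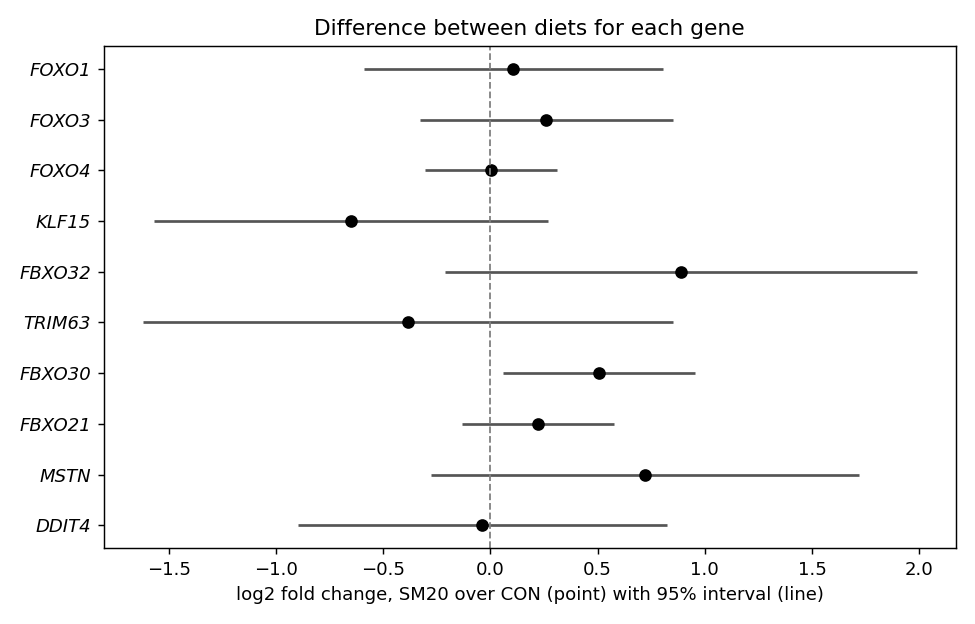
Log2 fold change of SM20 over CON for each gene (points, horizontal axis) with its 95% interval from the quasi-likelihood test of edgeR (lines), n = 4 lambs per diet; the dashed line marks no difference. FBXO30, at 0.51, is the gene whose interval lies above 0, and the intervals of FBXO32 and TRIM63 are the widest.

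None of the 3 FOXO factors passed the test. *FOXO1*, a FOXO factor known in muscle for switching fuel use during fasting, stood at 59.2, 42.9, 16.0 and 44.6 CPM in SM20 lambs 1 to 4, against 48.9, 39.9, 30.4 and 32.1 CPM in CON lambs 1 to 4. SM20 lambs held both the highest and the lowest of the 8 values. Its log2 fold change was 0.11 ± 0.32 (SE, adjusted p = 0.894 by edgeR), and without SM20 lamb 1 it was -0.13.

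*FOXO3*, which in mice directly activates *Fbxo32* and autophagy genes, stood at 58.9, 51.7, 30.7 and 26.4 CPM in SM20 lambs 1 to 4, against 33.8, 44.7, 37.5 and 23.9 CPM in CON lambs 1 to 4. As with FBXO32, SM20 lambs 1 and 2 lay above all CON lambs and the other SM20 lambs did not. For this gene the log2 fold change was 0.26 ± 0.27 (SE, adjusted p = 0.644 by edgeR), and it was 0.05 without SM20 lamb 1.

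*FOXO4*, the third family member expressed in muscle, stood at 76.8, 66.8, 59.3 and 54.2 CPM in SM20 lambs 1 to 4, against 73.4, 66.04, 58.6 and 58.7 CPM in CON lambs 1 to 4. Its means were 64.3 ± 9.86 CPM in SM20 and 64.2 ± 7.05 CPM in CON (SD, n = 4 per diet). The log2 fold change was 0.00 ± 0.14 (SE), and its 95% interval, from -0.31 to 0.31, leaves out a change by more than 1.24-fold in either direction. It was the narrowest interval of the 10 genes. These are transcript levels only: FOXO activity depends on phosphorylation and location in the cell, which were not measured.

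*KLF15*, which glucocorticoids induce and which in rodents raises branched-chain amino acid breakdown and ligase genes, stood at 24.1, 25.1, 12.7 and 7.15 CPM in SM20 lambs 1 to 4. The CON lambs 1 to 4 had 49.1, 20.0, 23.5 and 16.1 CPM. CON lamb 1 lay above every SM20 lamb, and the other CON lambs lay among the SM20 values. The log2 fold change was -0.65 ± 0.42 (SE, adjusted p = 0.433 by edgeR), and it was -0.20 without CON lamb 1, the lamb with the highest slow-fibre sum. The library with the fewest reads on any of the 10 genes was SM20 lamb 4 on KLF15, with 72 counts. The most were 10118 counts, on TRIM63 in CON lamb 1.

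*DDIT4*, which encodes REDD1, an inhibitor of the growth kinase complex mTORC1, stood at 88.0, 269.9, 96.2 and 177 CPM in SM20 lambs 1 to 4, against 248, 129, 82.1 and 189 CPM in CON lambs 1 to 4. Both diets spanned close to the same range, 3.07-fold within SM20 and 3.02-fold within CON. Its log2 fold change was -0.04 ± 0.39 (SE, adjusted p = 0.977 by edgeR). It ran from -0.43 without SM20 lamb 2 to 0.24 without CON lamb 1.

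*MSTN* encodes myostatin, a secreted inhibitor of muscle growth whose loss enlarges the muscles of cattle, sheep and mice. It stood at 11.2, 18.7, 12.4 and 44.4 CPM in SM20 lambs 1 to 4, against 14.9, 21.4, 8.45 and 7.82 CPM in CON lambs 1 to 4. SM20 lamb 4 stood more than 2-fold above every other lamb, and the other SM20 lambs lay within the CON range. The log2 fold change was 0.72 ± 0.45 (SE, adjusted p = 0.422 by edgeR), and without SM20 lamb 4 it was 0.10. In bulk muscle, fewer cells of a type and less RNA per cell cannot be told apart for any of these genes, and levels are not compared between genes because no transcript lengths were used here.

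Most of these genes varied widely between lambs on the same diet. The within-diet SD of log2 CPM was above the median of all genes tested, 0.28, for 8 of the 10, and 6 of the 10 were among the 10% of genes with the largest SD. TRIM63 had an SD of 1.06, which 0.890% of the tested genes exceeded, and FBXO32 had 1.003, which 1.09% exceeded. MSTN had 0.80, KLF15 0.77, DDIT4 0.73, FOXO1 0.62 and FOXO3 0.48. FBXO30, at 0.34, was near the middle of the table. FBXO21 at 0.23 and FOXO4 at 0.19 were below the median, and 76.1% of tested genes varied more than FOXO4. From the lowest to the highest of the 8 lambs FBXO32 spanned 7.36-fold, TRIM63 6.96-fold and KLF15 6.87-fold, against 1.60-fold for FBXO21 and 1.42-fold for FOXO4. These shares are a description over all genes at all levels and carry no test.

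**Figure D3:**
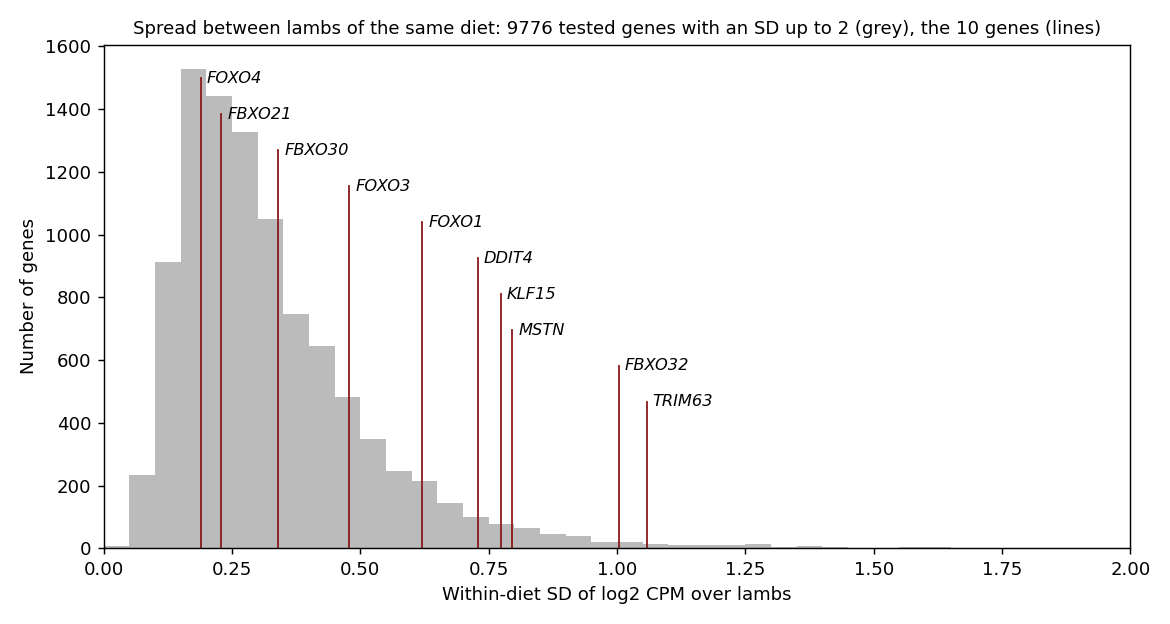
Number of tested genes (vertical axis, grey bars) by the SD of log2 CPM between lambs of the same diet, pooled over SM20 and CON (horizontal axis), with the 10 genes as lines whose height has no meaning; genes with an SD of up to 2 are drawn. TRIM63 and FBXO32 lie in the far tail at 1.06 and 1.003, and FOXO4 and FBXO21 lie in the bulk of the genes.

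Within this spread the lambs kept a similar order for some of the genes. Pearson correlations of log2 CPM over the 8 lambs were computed for all 45 pairs, of which 33 were positive. By two-sided exact permutation test 8 pairs had an unadjusted p under 0.05 and 0 had an adjusted p under 0.05 over the 45 pairs. The 4 pairs with an adjusted p under 0.1 joined a ligase gene to a transcription factor or to a second ligase gene.

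FOXO4 and TRIM63 had the highest correlation, r = 0.95 (exact permutation p = 0.00131, adjusted p = 0.0592) and rho = 0.88 (exact permutation p = 0.00724, adjusted p = 0.207). Without SM20 lamb 1 and CON lamb 1, the 2 lambs farthest from the median of FOXO4, r was 0.90. The same pair had r = 0.98 among the SM20 lambs and r = 0.98 among the CON lambs, each over 4 lambs and given as a description. As deviations from the diet means it had r = 0.98 (exact permutation p within diets = 0.00174, adjusted p = 0.0781). That p is the smallest that permuting within diets allows. A pair alone at it could not have an adjusted p under 0.05 over the 45 pairs, whatever its r. The FOXO4 levels covered a 1.42-fold range, in which SM20 lamb 1 and CON lamb 1 were the 2 highest lambs for both genes.

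For the other 3 pairs, r of deviations from the diet means was 0.85 for KLF15 with TRIM63, 0.85 for FOXO3 with FBXO32 and 0.93 for FBXO32 with FBXO30. These were close to or above the r over the 8 lambs. By exact permutation within diets their p-values were 0.0347, 0.0451 and 0.0208 in that order, and 0.290, 0.290 and 0.254 adjusted. Permuting within diets allows fewer orders, so these adjusted p-values do not show that diet made the correlations. Over the 8 lambs, KLF15 and TRIM63 had r = 0.86 (exact permutation p = 0.00422, adjusted p = 0.0932) and rho = 0.83 (exact permutation p = 0.0154, adjusted p = 0.207), with r = 0.67 without SM20 lamb 4 and CON lamb 1. This pair alone passed in one of the fits that left out a lamb, with an adjusted p of 0.0446 by exact permutation test without CON lamb 3. FOXO3 and FBXO32 had r = 0.86 (exact permutation p = 0.00707, adjusted p = 0.0932) and rho = 0.86 (exact permutation p = 0.0107, adjusted p = 0.207), with r = 0.70 without SM20 lamb 1 and CON lamb 4. FBXO32 and FBXO30 had r = 0.89 (exact permutation p = 0.00828, adjusted p = 0.0932) but rho = 0.60 (exact permutation p = 0.132, adjusted p = 0.453), with r = 0.91 without SM20 lambs 1 and 3.

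FBXO32 and TRIM63, the pair most often read together as signs of atrophy, had r = 0.61 (exact permutation p = 0.115, adjusted p = 0.453) and rho = 0.76 (exact permutation p = 0.0368, adjusted p = 0.207), and r was 0.29 without SM20 lambs 1 and 3. As deviations from the diet means r was 0.76 (exact permutation p within diets = 0.0868, adjusted p = 0.391), with 0.89 among the SM20 lambs and 0.49 among the CON lambs as a description. Differences between correlations were not tested. MSTN, DDIT4 and FBXO21 were in none of the 8 pairs with an unadjusted p under 0.05.

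**Figure D4:**
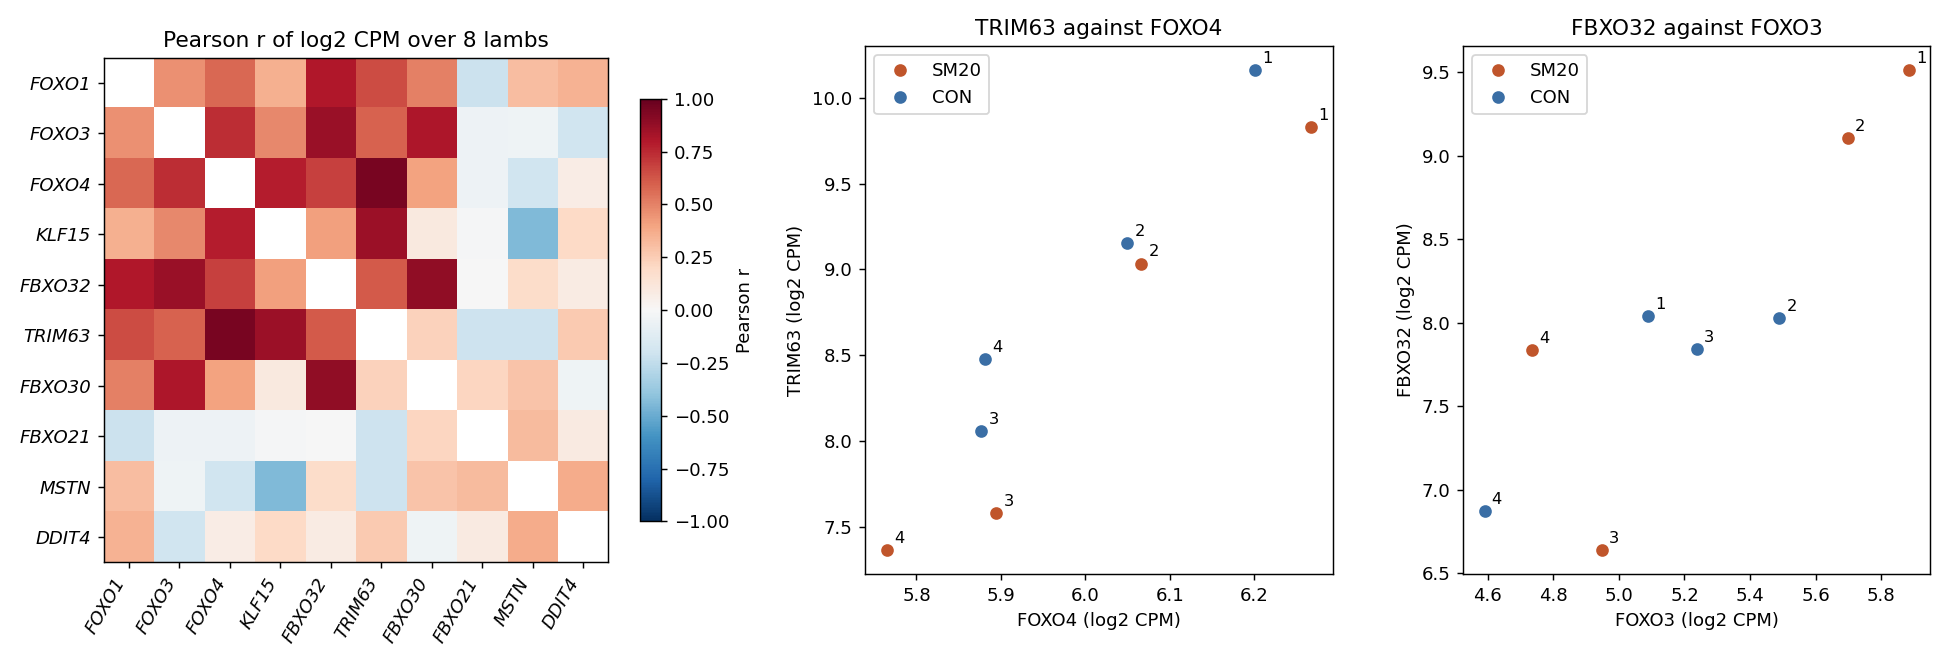
Left, Pearson r of log2 CPM over the 8 lambs for each pair of genes, coloured from -1 (blue) to 1 (red); middle and right, log2 CPM of TRIM63 against FOXO4 and of FBXO32 against FOXO3, with SM20 lambs in orange, CON lambs in blue and digits for lamb numbers. FOXO1, FOXO3, FOXO4, KLF15, FBXO32, TRIM63 and FBXO30 have a positive r in every pairing among them. It runs from 0.10 for KLF15 with FBXO30 to 0.95 for FOXO4 with TRIM63. FBXO21, MSTN and DDIT4 are pale against most others.

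The genes whose pattern over the 8 lambs was most like that of each member were taken from 5930 other genes with a mean of at least 10 CPM. For KLF15 the closest was *DBP*, a clock-controlled leucine-zipper factor, with r = 0.98 and rho = 0.98, and 10.3 CPM on average in SM20 against 13.1 CPM in CON. For FBXO32 it was *SH3RF2* (r = 0.99, rho = 0.95), a RING-finger protein gene with 19.2 CPM in SM20 and 9.94 CPM in CON. Among the 2 most like TRIM63 was *METRNL* (r = 0.97, rho = 0.98), which encodes a secreted protein, with 92.8 CPM in SM20 and 136 CPM in CON. For FOXO4 the 2 closest were *MAFF*, a small MAF factor (r = 0.99), and *PPARD*, a nuclear receptor of fatty acid oxidation (r = 0.97). FOXO1 was closest to *IRF2BP2* (r = 0.97), FOXO3 to *MAGI1* (r = 0.97), FBXO30 to the translation initiation factor gene *EIF4G1* (r = 0.94) and FBXO21 to *SYPL2* (r = 0.90). MSTN was closest to *BRMS1L* (r = 0.97) and then to *SKIL* (r = 0.96), which encodes SnoN, an inhibitor of SMAD factors. DDIT4 had *ATP6V1G1* (r = 0.91), a proton pump subunit. Each is among the 2 highest of 5930 values over 8 lambs, so it is a description with no test.

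Genes around the 10 were counted in 8 lists. With the edgeR test 0 members of any of the 8 passed over all genes, so each count below gives the unadjusted p under 0.05 and the calls of DESeq2. These are to be read against the 9.84% of all genes that were higher and 8.45% that were lower in SM20 at an unadjusted p under 0.05, and the 6.28% that DESeq2 called. Non-overlap of the diets is to be read against 12.2% of all genes. It held for 5 of 31 FOXO regulators, 3 of 34 FOXO targets, 5 of 29 other ubiquitin genes and 3 of 13 SCF genes. In the other lists it held for 4 of 21 myostatin, 1 of 18 glucocorticoid, 6 of 24 mTORC1 and 1 of 18 amino acid breakdown genes. Most genes named below had the smallest p of their list, which favours non-overlap, so for them it is no further support.

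Among the upstream regulators of FOXO, 26 of 31 tested genes had a positive log2 fold change, with a median of 0.23. Of these, 8 were higher and 0 lower at an unadjusted p under 0.05. DESeq2 called 3 as higher, *MAPK8*, *PRKAA2* and *IGF1R*, the last of them named after its values were seen. MAPK8, the stress kinase JNK1, averaged 17.9 ± 1.85 CPM in SM20 and 11.1 ± 0.57 CPM in CON (SD, n = 4 per diet), with a log2 fold change of 0.69 ± 0.14 (SE) and an adjusted p of 0.0837 by edgeR. All 4 SM20 lambs were above all 4 CON lambs. PRKAA2, a catalytic subunit of the energy-sensing kinase AMPK, had 0.67 ± 0.15 (SE, adjusted p = 0.0895 by edgeR), also with no overlap between diets.

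FOXO targets in autophagy and catabolism had 21 of 34 genes positive, with a median of 0.05. At an unadjusted p under 0.05, 4 were higher and 1 was lower, and DESeq2 called 1, *SESN3*, as higher. SESN3, a sestrin that restrains mTORC1, averaged 17.5 ± 2.42 CPM in SM20 and 9.11 ± 1.10 CPM in CON (SD, n = 4 per diet), with no overlap (edgeR adjusted p = 0.0764). *CCNG2*, an atypical cyclin, averaged 18.0 ± 7.29 CPM in SM20 and 9.93 ± 1.61 CPM in CON (SD, n = 4 per diet; edgeR adjusted p = 0.149), and its diets overlapped.

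Of 29 other ubiquitin genes linked to muscle mass, 17 were positive, with a median of 0.17. At an unadjusted p under 0.05, 4 were higher and 1 was lower, and DESeq2 called 2 as higher. They were *UBR2*, an N-recognin ligase, at 174 ± 23.4 CPM in SM20 and 114 ± 18.0 CPM in CON, and *ITCH*, a HECT-domain ligase, at 46.8 ± 5.46 CPM in SM20 and 33.0 ± 4.66 CPM in CON (SD, n = 4 per diet). Their edgeR adjusted p-values were 0.107 for UBR2 and 0.121 for ITCH, and both had no overlap between diets. The core of the SCF ligases, into which FBXO32, FBXO30 and FBXO21 dock, and its neddylation enzymes had 7 of 13 genes positive and a median of 0.01. There 2 were lower at an unadjusted p under 0.05, *UBE2M* and *NEDD8*, which encode the conjugating enzyme and the modifier that activates cullins. NEDD8 averaged 53.0 ± 2.94 CPM in SM20 and 74.5 ± 8.88 CPM in CON (SD, n = 4 per diet), with an adjusted p of 0.107 by edgeR, and was called as lower by DESeq2.

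The myostatin and activin pathway had 13 of 21 genes positive, with a median of 0.04. At an unadjusted p under 0.05, 4 were higher and 1 was lower, and DESeq2 called *TGFBR1* as higher. TGFBR1, a type I receptor that myostatin can use, averaged 9.36 ± 0.92 CPM in SM20 and 5.61 ± 1.1999 CPM in CON, and *ACVR2B*, its main type II receptor, 7.62 ± 0.92 CPM in SM20 and 4.91 ± 0.90 CPM in CON (SD, n = 4 per diet). All 4 SM20 lambs lay above all 4 CON lambs for both receptors, and their edgeR adjusted p-values were 0.113 and 0.136.

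The glucocorticoid response list had 8 of 18 genes positive and a median of -0.07. At an unadjusted p under 0.05, 2 were higher and 1 was lower, and DESeq2 called 1 in each direction. *NR3C1*, the glucocorticoid receptor, averaged 90.7 ± 22.4 CPM in SM20 and 52.4 ± 3.87 CPM in CON with no overlap (SD, n = 4 per diet; edgeR adjusted p = 0.0871). *PER1*, a clock repressor that glucocorticoids induce, averaged 74.98 ± 15.7 CPM in SM20 and 146 ± 59.0 CPM in CON (SD, n = 4 per diet; edgeR adjusted p = 0.117), and its diets overlapped. DDIT4 and KLF15, both targets of the receptor in rodents, had the fold changes given above.

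The mTORC1 pathway around DDIT4 had 12 of 24 genes positive and a median of 0.03, with 4 higher and 4 lower at an unadjusted p under 0.05. DESeq2 called 2 as higher, SESN3 and *RICTOR*, and 1 as lower, *LAMTOR2*, which was named after its values were seen. RICTOR, a scaffold of mTORC2 that takes part in AKT activation, averaged 28.6 ± 7.32 CPM in SM20 and 16.7 ± 4.44 CPM in CON (SD, n = 4 per diet; edgeR adjusted p = 0.121).

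Amino acid breakdown, the pathway that KLF15 raises in rodents, had 15 of 18 genes negative and a median of -0.33. At an unadjusted p under 0.05, 6 were lower and 0 higher, and DESeq2 called 2 as lower, *ALDH4A1* and *GPT*. The 6 include *BCKDK*, at a log2 fold change of -0.29 ± 0.12 (SE), which encodes a kinase that restrains this pathway. The counts therefore mix steps of the pathway with its regulators. GPT, an alanine aminotransferase, averaged 73.96 ± 10.8 CPM in SM20 and 112 ± 25.1 CPM in CON (SD, n = 4 per diet; edgeR adjusted p = 0.133), and its diets overlapped. ALDH4A1, of proline breakdown, had a log2 fold change of -0.77 ± 0.14 (SE, edgeR adjusted p = 0.0764). The median was -0.18 without CON lamb 1, the lamb with the highest KLF15 level and slow-fibre sum, whose part in it was otherwise not tested.

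**Figure D5:**
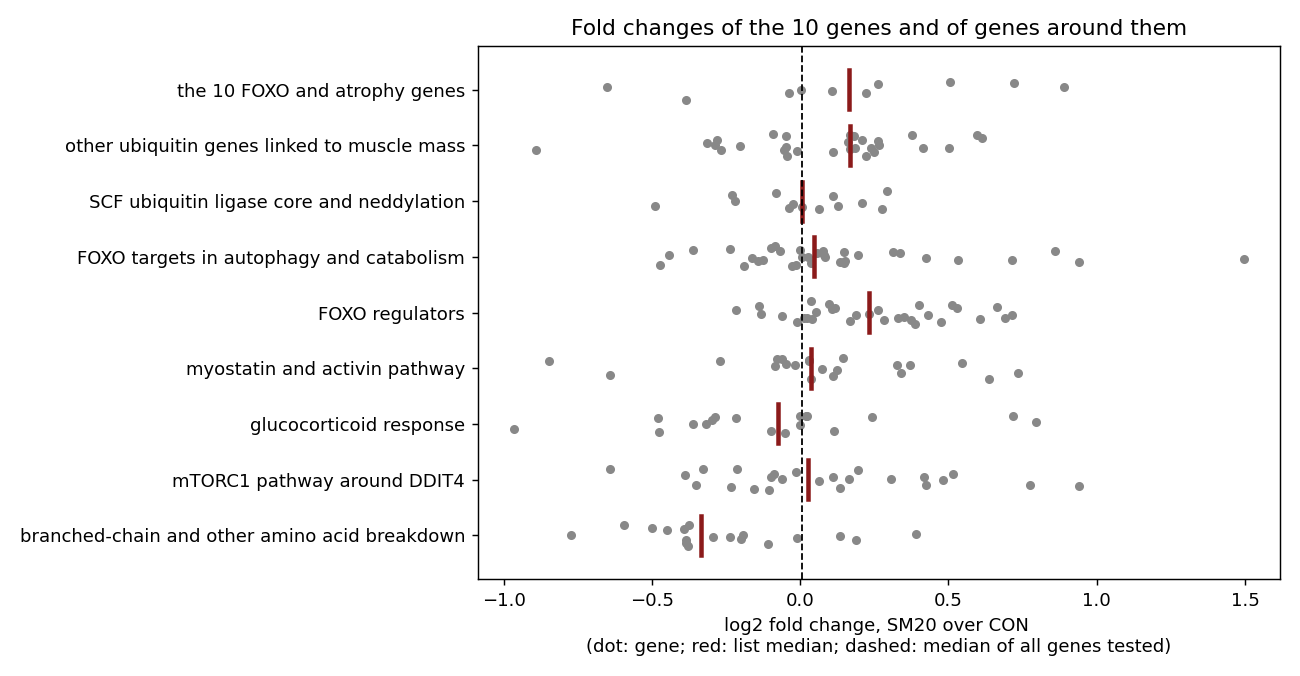
Log2 fold change of SM20 over CON (horizontal axis) for every tested gene (dots) of the 10 described genes and of the 8 lists around them, with list medians in red and the median of all genes tested, 0.01, dashed. The 10 genes straddle 0 at a median of 0.16, FOXO regulators lie mostly above 0 and amino acid breakdown genes mostly below it.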

How the data were processed

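Raw read counts by gene symbol, not normalized by the authors, were taken from the deposited table of 8 libraries (4 SM20, 4 CON). The submitters' processing notes name Trim Galore, cutadapt, STAR, featureCounts and DESeq2; no source used here gives their versions, the build, the annotation or the strand setting, so reads of overlapping or antisense genes may not be told apart, and no coordinates or sequences are printed. RNeasy Mini and TruSeq Stranded mRNA kits were used, per the labels' protocols. The deposited sample sheet gave the labels' diet for 8 of 8 libraries. Replicate numbers follow accession order and pair nothing.

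All genes were tested in edgeR 4.0.16 (R 4.3.3) with the quasi-likelihood F-test, diet as the only term, TMM scaling and filterByExpr (minimum count 10), leaving 9779 genes and all 10 members. P-values are two-sided and Benjamini-Hochberg adjusted with a threshold of 0.05. CPM are TMM-scaled; log2 CPM used a prior count of 2. The standard error is the log2 fold change over the square root of F. Alternatives were DESeq2 1.42.0, limma-voom 3.58.1, other scalings, no filter, robust dispersions and leaving out each lamb. The members and lists were chosen with earlier results of these data known. Of each list, the genes past the threshold or else the 2 with the smallest p were named, and for each member the 2 most alike genes were found; not all of these are reported here. Exact permutations for correlations over all 8 lambs ran over the 40320 pairings of the lambs. Those for deviations from the diet means ran within diets only, which gives fewer orders. The fits without 1 lamb used the orders of the remaining lambs. The ratios over all 8 lambs used the 70 assignments of 4 against 4.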

Additional observations from a re-analysis of the deposited data

How the results depend on the processing

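For the 10 genes, 0 passed the threshold in either direction under each of the 15 alternatives run (other scalings, no filter, DESeq2, limma-voom, robust dispersions and each lamb left out). Their lowest adjusted p was 0.168, for FBXO30 with DESeq2. Over all genes, the 4 higher became 0 with RLE factors, 0 with upper-quartile scaling, 0 without a filter on low counts, 0 with limma-voom and 255 with DESeq2. The 1 lower became 0 without a filter, 0 with limma-voom and 191 with DESeq2. Leaving out 1 lamb left 0 higher and 0 lower in every case. The sign of FOXO4 turned, at -0.0047 with RLE factors, -0.031 with upper-quartile scaling, -0.0031 with DESeq2 and -0.0019 with limma-voom, and that of DDIT4 turned to 0.040 with library size alone. Over the fits without 1 lamb the log2 fold change ran from -0.13 to 0.37 for FOXO1, -0.096 to 0.076 for FOXO4, -0.43 to 0.24 for DDIT4 and -0.996 to 0.18 for TRIM63; the signs of the other 6 held in those 8 fits. Between 0 and 1 pair of genes passed as correlated without 1 lamb. The cause of these changes was not tested. With 4 lambs per diet, spread between lambs limits what can be seen: the 95% interval of FBXO32 reaches from 0.863-fold to 3.97-fold.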

Other observations

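The 2 main atrophy ligases were also set against each other within each library, where scaling cancels. This ratio was chosen after the counts were seen. TRIM63 counts over FBXO32 counts were 1.24, 0.950, 1.92 and 0.721 in SM20 lambs 1 to 4, against 4.35, 2.18, 1.16 and 3.05 in CON lambs 1 to 4. CON lamb 3 lay among the SM20 lambs, and the other CON lambs lay above all of them. The mean log2 ratio was 0.18 ± 0.60 in SM20 and 1.27 ± 0.81 in CON (SD, n = 4 per diet), a difference of -1.09 with exact permutation p = 0.0857 (two-sided; 0.257 adjusted over 3 ratios; the smallest the design allows is 0.0286). Without 1 lamb the difference ran from -1.44 to -0.81, with exact permutation p from 0.0571 to 0.171. The ratios of FOXO3 to FOXO4 counts (exact permutation p = 0.457) and of FOXO1 to FOXO3 counts (exact permutation p = 0.629) did not pass.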
